A study of Mus musculus with 14 samples.

Results

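The genes of the Polycomb complexes and of the MLL, menin and DOT1L complexes were examined as 2 separate groups by the accessibility of the chromatin at and around them. There are 44 member genes, 24 of them Polycomb and 20 of the MLL group. Their regions were those of the deposited mm10 region table that overlap the RefSeq bounds of a member gene extended by 10 kb and whose mean value over all libraries is at least 50. This gave 237 regions, 122 at Polycomb genes and 115 at MLL group genes, of 59189 regions in the table that reach that mean and 705361 in all. Each of the 44 genes had at least 1 region, 10 had exactly 1, and 3 regions were shared by Cbx2 and Cbx8. A further 1211 regions in these windows had a lower mean and were not tested. The members nearest the floor were regions at Bcor (mean 50.07), Men1 (50.79) and Aff1 (50.86), and those just outside it were at Nsd1 (49.93), Ezh1 (49.79) and Kdm6b (49.79).

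The values come from ATAC-seq, which reads open chromatin through the sites where a transposase can cut it, on 14 libraries of sorted mouse bone marrow cells. MPP3 cells, multipotent progenitors that lean towards myeloid output, and LT-HSC, the long-term stem cells of blood, gave 7 libraries each. The donor genotypes were Dnmt3a-flR878H/+;Npm1-frt/+ (called Dnmt3a;Npm1 here), Npm1-frt/+ (Npm1), Dnmt3a-flR878H/+ (Dnmt3a) and wild type, written WT (Mx-Cre) in the labels (WT). The sample titles call the Npm1 allele Npm1c, the usual name of the cytoplasmic leukaemia mutant of this nucleolar protein, and R878H is the mouse form of a recurrent leukaemia mutation of the DNA methyltransferase DNMT3A. All donors were C57BL/6J and young, and in every group 1000000 whole marrow cells went into lethally irradiated young CD45.1 recipients, which received poly(I:C) 4 weeks later, tamoxifen 4 weeks after that, and gave marrow after 4 more weeks. Poly(I:C) induces the interferon-driven promoter of Mx-Cre and tamoxifen activates an inducible recombinase. WT recipients received both agents too, so their part is shared by all groups, and the labels name a Cre only for WT. They do not say whether donor cells were separated from remaining host cells in the sort, or which recombinase tamoxifen activates. Of the 8 groups, 6 held 2 libraries and 2, MPP3 Dnmt3a;Npm1 and LT-HSC Dnmt3a, held 1, which has no spread of its own and was assumed to vary like the others. The labels do not say that replicates A and B came from separate animals, and the p-values below therefore measure library-to-library spread, which may be technical.

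Polycomb proteins keep developmental genes silent. Polycomb repressive complex 2 (PRC2) methylates H3K27, PRC1 ubiquitinates H2A and compacts chromatin, and the BAP1-ASXL complex removes that ubiquitin. MLL proteins methylate H3K4 and counteract Polycomb silencing. MLL1 (Kmt2a) is held at HOX genes by menin and LEDGF (Psip1), and DOT1L methylates H3K79 there. In NPM1-mutant leukaemia HOX and MEIS1 expression is known to depend on MLL1, menin and DOT1L.

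The sequences carried at the members' start sites are shown first for 6 genes that stand for different complexes. These are the PRC2 genes Ezh2 and Eed, the BAP1 partner Asxl2, the methyltransferase Kmt2a, menin (Men1) and the H3K27 demethylase Kdm6a. They were picked because their start regions had lower signal in Npm1 than in WT LT-HSC under the scaling of the main fit below. Each sequence is the 250 bases before a RefSeq start (GRCm38.p6, the mm10 assembly), 5′ to 3′ in the gene's direction. Capitals mark the GC box GGGCGG, bound by SP factors, and the CCAAT box, bound by NF-Y, on either strand. The windows are chr6:47595031-47595280 on the minus strand for Ezh2, chr7:89980977-89981226 on the minus strand for Eed, chr12:3426607-3426856 on the plus strand for Asxl2, chr9:44881290-44881539 on the minus strand for Kmt2a, chr19:6334729-6334978 on the plus strand for Men1 and chrX:18162325-18162574 on the plus strand for Kdm6a.
Ezh2: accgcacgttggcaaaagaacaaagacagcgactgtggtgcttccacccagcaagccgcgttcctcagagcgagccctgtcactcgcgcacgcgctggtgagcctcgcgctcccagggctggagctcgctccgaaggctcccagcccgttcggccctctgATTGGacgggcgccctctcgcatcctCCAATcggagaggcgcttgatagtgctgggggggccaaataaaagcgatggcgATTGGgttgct
Eed: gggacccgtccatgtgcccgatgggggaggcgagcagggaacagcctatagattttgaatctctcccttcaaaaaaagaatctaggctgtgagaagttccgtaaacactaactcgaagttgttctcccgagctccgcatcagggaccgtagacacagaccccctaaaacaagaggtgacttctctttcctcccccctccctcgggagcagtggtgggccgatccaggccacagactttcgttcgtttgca
Asxl2: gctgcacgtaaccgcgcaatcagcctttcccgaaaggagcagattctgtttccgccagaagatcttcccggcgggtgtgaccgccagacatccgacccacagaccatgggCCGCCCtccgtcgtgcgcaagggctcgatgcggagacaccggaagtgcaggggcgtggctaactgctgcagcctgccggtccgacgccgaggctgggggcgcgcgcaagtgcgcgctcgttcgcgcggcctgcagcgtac
Kmt2a: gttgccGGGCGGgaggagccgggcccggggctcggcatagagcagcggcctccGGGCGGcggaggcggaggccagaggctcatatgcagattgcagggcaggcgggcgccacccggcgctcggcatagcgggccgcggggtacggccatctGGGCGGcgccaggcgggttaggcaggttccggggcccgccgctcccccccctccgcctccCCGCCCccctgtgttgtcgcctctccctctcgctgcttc
Men1: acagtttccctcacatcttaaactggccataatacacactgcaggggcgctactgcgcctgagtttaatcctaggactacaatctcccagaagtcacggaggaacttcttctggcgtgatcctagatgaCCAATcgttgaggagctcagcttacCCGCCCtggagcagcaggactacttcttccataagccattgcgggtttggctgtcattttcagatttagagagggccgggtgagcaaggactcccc
Kdm6a: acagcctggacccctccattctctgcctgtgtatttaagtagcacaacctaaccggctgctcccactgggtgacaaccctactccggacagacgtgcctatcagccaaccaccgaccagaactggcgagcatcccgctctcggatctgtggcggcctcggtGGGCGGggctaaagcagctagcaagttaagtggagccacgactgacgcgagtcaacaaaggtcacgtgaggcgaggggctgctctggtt
Ezh2 held 3 CCAAT boxes and no GC box, Kmt2a held 4 GC boxes and no CCAAT box, Men1 held 1 of each, Asxl2 and Kdm6a held 1 GC box each, and Eed held neither. These letters differed between the 6 promoters, which were picked for a fall that rests on the scaling. Any part of the letters in that fall was not tested.

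A start was listed for 35 of the 44 members, 22 Polycomb and 13 MLL genes. Of these promoter windows, 17 of 22 Polycomb and 11 of 13 MLL windows held a GC box, against 32.7% of all 32851 RefSeq windows and 59.0% of the 15517 whose start lies in a tested region. A CCAAT box was in 9 of 22 and 3 of 13, against 33.5% of the windows in tested regions. The ETS letters CCGGAAG were in 3 of 22 and 2 of 13 (12.4% of windows in tested regions), the RUNX letters TGTGGT in 5 of 22 and 1 of 13 (10.7%), and the GATA letters AGATAA in none of either (5.21%); both strands were searched, and no motif contains another. The number of CG steps had a median of 23 in Polycomb windows and 29 in MLL windows, against 16 in windows of tested regions and 6 in all. These are descriptions of the letters in a window, with no statement about any factor.

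Places were given from the same table. At Polycomb genes 27 regions covered a listed start of the gene, 58 lay inside a gene, 35 in the 10 kb flanks and 2 at a gene bound whose start was not listed. For MLL group genes the numbers were 13, 55, 39 and 8. The 9 members with no listed start are Ash1l, Ash2l, Cbx2, Kdm6b, Kmt2b, Kmt2e, Nsd1, Pcgf1 and Psip1. Of the flank regions, 5 at Polycomb and 9 at MLL genes covered the start of another gene, so a region is a position and not evidence of which gene it serves. For each gene a main region was taken: the start region of highest mean, or the gene-bound region where no start is listed, or else the region of highest mean.

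Levels were compared between regions only per length, as mean normalized signal per kb of region. Start regions had a median of 224 per kb at Polycomb and 210 per kb at MLL genes. Regions inside the genes had medians of 94.6 and 82.8 per kb, and flanks 89.4 and 96.2. The histone chaperone gene Rbbp4 had the most open main region (443 per kb), followed by Eed (382 per kb), the PRC2 scaffold that binds methylated H3K27. Phf19, a PRC2 accessory gene, had the lowest (137 per kb). Above all of these stood a region of only 510 bp inside Jarid2, the PRC2 cofactor gene, with 1154 per kb (chromosome 13, 44869359 to 44869868); it had no called difference. Across the 14 libraries the SD of log2 signal at a main region was between 0.28 for the H3K4 demethylase gene Kdm1a and 0.67 for Asxl2, with medians of 0.46 at Polycomb and 0.47 at MLL genes.

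**Figure D1:**
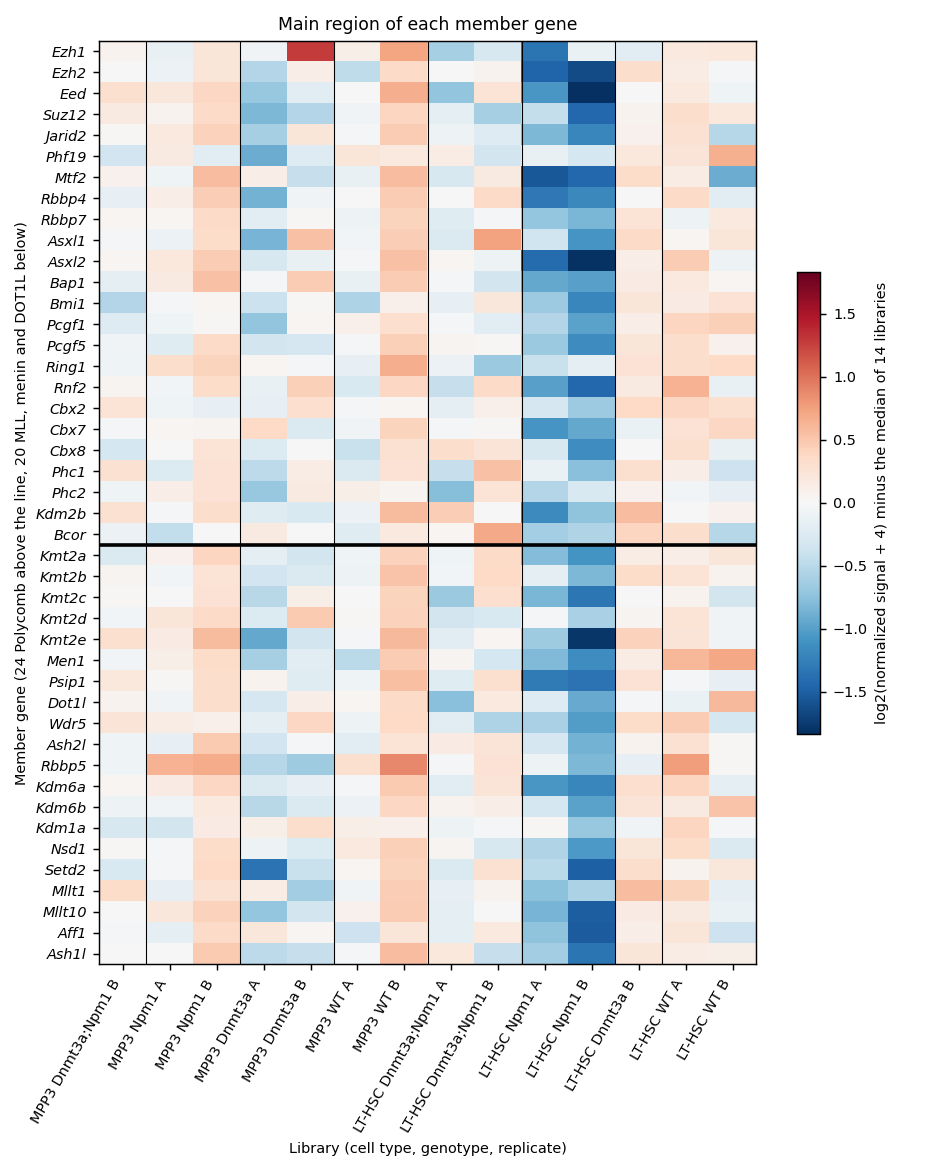
Heat map of log2(normalized signal + 4) at the main region of each of the 44 member genes (rows; Polycomb above the heavy line) in the 14 libraries (columns; thin lines part the 8 groups), after subtracting the median of each row. Red is above and blue below the row's median; the 2 LT-HSC Npm1 columns are the bluest under this normalization, and scaling to gene-start regions takes that away, as the text states.

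The libraries differed in how much of their signal lay in open regions. Total deposited signal was 14683769 to 28748205 per library. The share of it in the 59189 tested regions was lowest in the Npm1 LT-HSC libraries (29.4% and 25.5%), against 56.5% and 40.7% in WT LT-HSC, and was 31.8% to 63.1% in the other 10 libraries. The share at gene starts was 9.20% and 7.09% in Npm1 LT-HSC against 25.8% and 16.6% in WT LT-HSC. The labelled cell types were checked at marker genes. Regions of 10 myeloid progenitor genes summed to 8515 to 8651 in WT MPP3 and 4873 to 5816 in WT LT-HSC, and those of 10 stem cell genes to 10501 to 11062 in WT MPP3 and 12391 to 13234 in WT LT-HSC, the order the labels imply.

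The Npm1 allele alone in LT-HSC was the comparison with most calls. Differences were tested with limma on log2(value/TMM factor + 4), where TMM is a scale factor per library from the trimmed mean of log ratios over the tested regions, and a region was called where its p (two-sided), adjusted by Benjamini and Hochberg's method over all 59189 regions, was under 0.05. Of the 237 member regions, 24 were called in Npm1 against WT LT-HSC, 10 Polycomb and 14 MLL, against 5.91% of all tested regions. Lower signal in Npm1 made up 23 of the 24, against 4.52% of all tested regions, and 1 was higher. At an unadjusted p under 0.05 (limma) 69 member regions passed, against 23.3% of all. The direction rests on the scaling. With TMM over gene-start regions only, 24 member regions were again called, but 23 of them were higher and 1 lower. Of all 59189 regions 6752 were called there, 6571 higher and 181 lower. With cyclic loess 1 member was called and none was lower, against 93 of all regions, 81 higher and 12 lower. With the library total 53 members were called and 52 were lower, against 8905 of all, 464 higher and 8441 lower. These scalings move the median of all tested regions from 0.01 (log2) in the fit used here to 0.96 with gene-start TMM and -0.57 with the library total.

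Start sites were counted apart. Of the 40 start regions of members, 11 were called, all lower, 7 of 27 Polycomb and 4 of 13 MLL, against 15.0% of the 11884 tested regions at any gene start. The median log2 difference was -0.92 over Polycomb starts and -0.95 over MLL starts, against -0.69 over all tested gene starts, and the 2 member medians became 0.05 and 0.04 with TMM over gene-start regions and -0.08 and 0.08 with cyclic loess. The share called was higher among strongly open starts: of those with a mean of at least 300, 28.5% were called lower in the whole table, and 10 of the 34 members of that kind were. Over all gene starts the median difference was 0.41 in the bin of means from 50 to 100, -0.89 from 300 to 500, where 13 member starts had a median of -0.67, -1.09 from 500 to 800, where 16 had -1.0, and -1.18 from 800 up, where 5 had -1.21. The share of member starts called was thus near that of equally open starts. Away from their own starts the medians were 0.07 at Polycomb and 0.19 at MLL genes, against 0.18 for regions of the table not at a start.

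**Figure D2:**
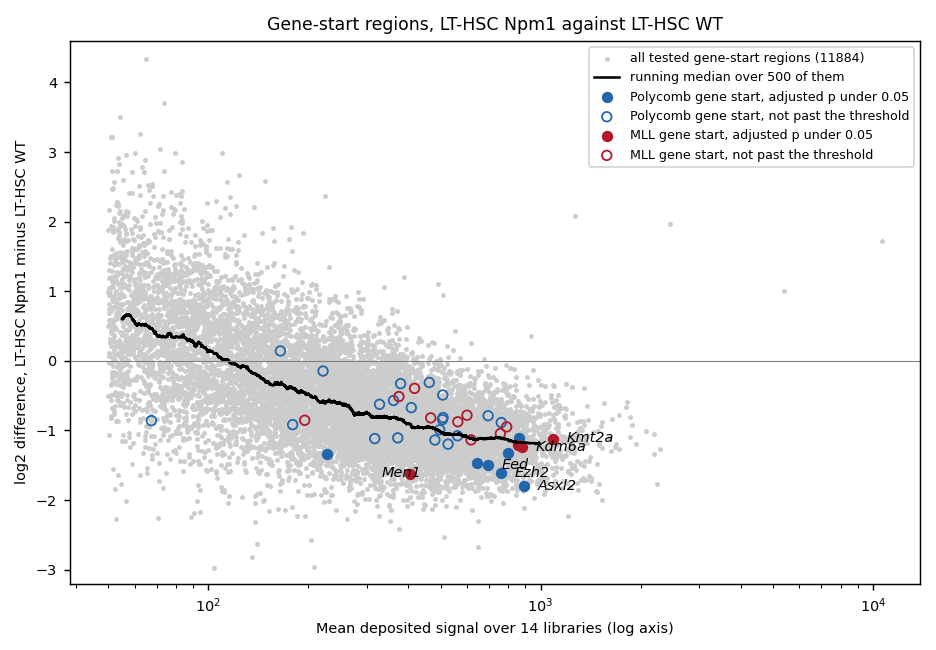
log2 difference of LT-HSC Npm1 minus LT-HSC WT (vertical) against the mean deposited signal (horizontal, log axis) at all 11884 tested gene-start regions (grey), with their running median over 500 regions (black line) and the member starts in colour, filled where the adjusted p is under 0.05. Most member starts lie close to the black line, which falls with the mean; Asxl2, Ezh2 and Men1 lie below it. With TMM over gene-start regions the member medians are 0.05 and 0.04, near 0.

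Among the PRC2 genes the catalytic subunit Ezh2 (chromosome 6, 47593949 to 47595871; the region also covers the start of F830010H11Rik) had 255 and 225 in Npm1 LT-HSC against 783 and 701 in WT LT-HSC. It fell by 1.61 on the log2 scale (SE 0.34; limma, adjusted p = 0.015), and the Npm1 libraries lay below all 12 others. Eed (chromosome 7, 89980059 to 89981600) had 293 and 170 against 695 and 585 and fell by 1.50 (SE 0.38; limma, adjusted p = 0.0274). Its Npm1 values also lay below those of the other 12 libraries. The third core subunit gene, Suz12, had 361 and 178 in Npm1 against 615 and 559 in WT LT-HSC, a difference of -1.20 (SE 0.36) that missed the threshold (limma, adjusted p = 0.0528). Rbbp4, whose product carries histones to PRC2, had 281 and 310 against 906 and 616 and fell by 1.33 (SE 0.35; limma, adjusted p = 0.0301); its region covers the start of Zbtb8os as well. At Phf19, which binds methylated H3K36 and recruits PRC2, an internal region (chromosome 2, 34904315 to 34905697) had 212 and 180 against 706 and 537 and fell by 1.64 (SE 0.33; limma, adjusted p = 0.0129). The Phf19 start itself had 341 and 298 in Npm1 against 440 and 592 in WT LT-HSC and was not called.

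In the complex that removes ubiquitin from H2A, Asxl2 had the smallest p of all members. Its start region (chromosome 12, 3425786 to 3428012; it also covers the start of 1110002L01Rik) had 288 and 217 in Npm1 LT-HSC, against 1068 and 725 in WT LT-HSC. Asxl2 fell by 1.80 (SE 0.33; limma, adjusted p = 0.0126), and no library outside Npm1 LT-HSC was as low. It was also the 1 lower call left with TMM over gene-start regions, at -0.81. Its paralogue Asxl1, often mutated in myeloid malignancy, had 331 and 199 against 435 and 495, a difference of -0.84 (SE 0.43) that was not called (limma, adjusted p = 0.245). The deubiquitinase gene Bap1 had 255 and 243 against 558 and 501 and was not called (limma, adjusted p = 0.0584).

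Of the PRC1 genes, the ubiquitin ligase Rnf2 (chromosome 1, 151499727 to 151501396) had 273 and 199 against 860 and 499 and fell by 1.47 (SE 0.38; limma, adjusted p = 0.0293). Its groups did not overlap. Cbx7, a reader of methylated H3K27, Pcgf5 and Pcgf1, both subunits of variant PRC1, and a flank region of Phc1 were called lower as well, with differences of -1.34, -1.11, -1.17 and -1.51. Bmi1, the PRC1 subunit known for stem cell self-renewal, had 293 and 201 in Npm1 against 519 and 561 in WT LT-HSC. That difference of -1.14 (SE 0.35) missed the threshold (limma, adjusted p = 0.0539), although the groups did not overlap.

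In the MLL group, menin had the largest fall at a start. Men1 (chromosome 19, 6334448 to 6336146) had 197 and 156 in Npm1 LT-HSC against 530 and 568 in WT LT-HSC and fell by 1.62 (SE 0.37; limma, adjusted p = 0.019). Its partner LEDGF, at the Psip1 gene bound (chromosome 4, 83485448 to 83487041), had 212 and 203 against 520 and 473 and fell by 1.24 (SE 0.34; limma, adjusted p = 0.0347). Both genes showed groups that did not overlap. Kmt2a (chromosome 9, 44878876 to 44883428), the MLL1 gene, had 558 and 454 against 1062 and 1132 and fell by 1.12 (SE 0.31; limma, adjusted p = 0.0369). With cyclic loess in place of TMM its difference was 0.14, of the opposite sign. Kmt2e, an MLL family gene, fell at its gene bound by 1.30 and stood at 0.09 with cyclic loess.

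Dot1l, which encodes the H3K79 methyltransferase, was called in its flanks but not at its start. One flank region (chromosome 10, 80751128 to 80752705) had 156 and 205 in Npm1 LT-HSC against 488 and 548 in WT LT-HSC, a fall of 1.51 (SE 0.35; limma, adjusted p = 0.021). The start region had 358 and 221 against 388 and 642 and was not called (-0.82, SE 0.39; limma, adjusted p = 0.205). The second called flank region covers the starts of Plekhj1 and Sf3a2. Fusion partner genes of MLL were also among the calls: Mllt10 (chromosome 2, 18063636 to 18065953) had 432 and 271 against 879 and 720 and fell by 1.21 (SE 0.33; limma, adjusted p = 0.0337), and a region inside Aff1 fell by 1.17.

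The demethylase gene Kdm6a (chromosome X, 18161653 to 18163875), whose product removes H3K27 methylation, had 361 and 330 in Npm1 LT-HSC against 995 and 679 in WT LT-HSC and fell by 1.24 (SE 0.32; limma, adjusted p = 0.03). Its relative Kdm6b was called in a flank region (chromosome 11, 69395349 to 69397471), with 311 and 223 against 872 and 711 and a fall of 1.56 (SE 0.33; limma, adjusted p = 0.0144), but not at its main region. At Kmt2d, an enhancer H3K4 methyltransferase gene, the called region (chromosome 15, 98830594 to 98833468) covers the start of Prkag1, a kinase subunit gene; it had 361 and 209 against 736 and 897 and fell by 1.55 (SE 0.34; limma, adjusted p = 0.0178). The Kmt2d start had 361 and 241 against 434 and 349 and was not called. Setd2, the H3K36 trimethylase gene, had 402 and 199 at its start against 596 and 661, and was not called (-1.14, SE 0.39; limma, adjusted p = 0.0798).

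Kmt2b, the MLL2 gene, moved in both directions within 1 locus. A region inside it (chromosome 7, 30569910 to 30570944) had 114 and 90.9 in Npm1 LT-HSC against 10.4 and 20.1 in WT LT-HSC. It rose by 2.51 (SE 0.64, limma, adjusted p = 0.029), the 1 member region called higher, against 828 of all 59189 regions. It was called higher with TMM over gene-start regions too. That scaling raised the median of all tested regions to 0.96 and called 6571 of them higher, so this is not separate support. The same region had 145 and 96.9 in Dnmt3a MPP3 and 111 and 69.0 in Dnmt3a;Npm1 LT-HSC, both above their WT libraries. Both called Kmt2b flank regions, which cover the starts of Lin37 and of Psenen with U2af1l4, fell by 1.46 and 1.36. The next upward by p, a region inside the fusion partner gene Mllt1 (1.73) and a flank region of Kmt2c, an enhancer methyltransferase gene (2.10), were not called (limma, adjusted p = 0.0875 and 0.0946).

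**Figure D3:**
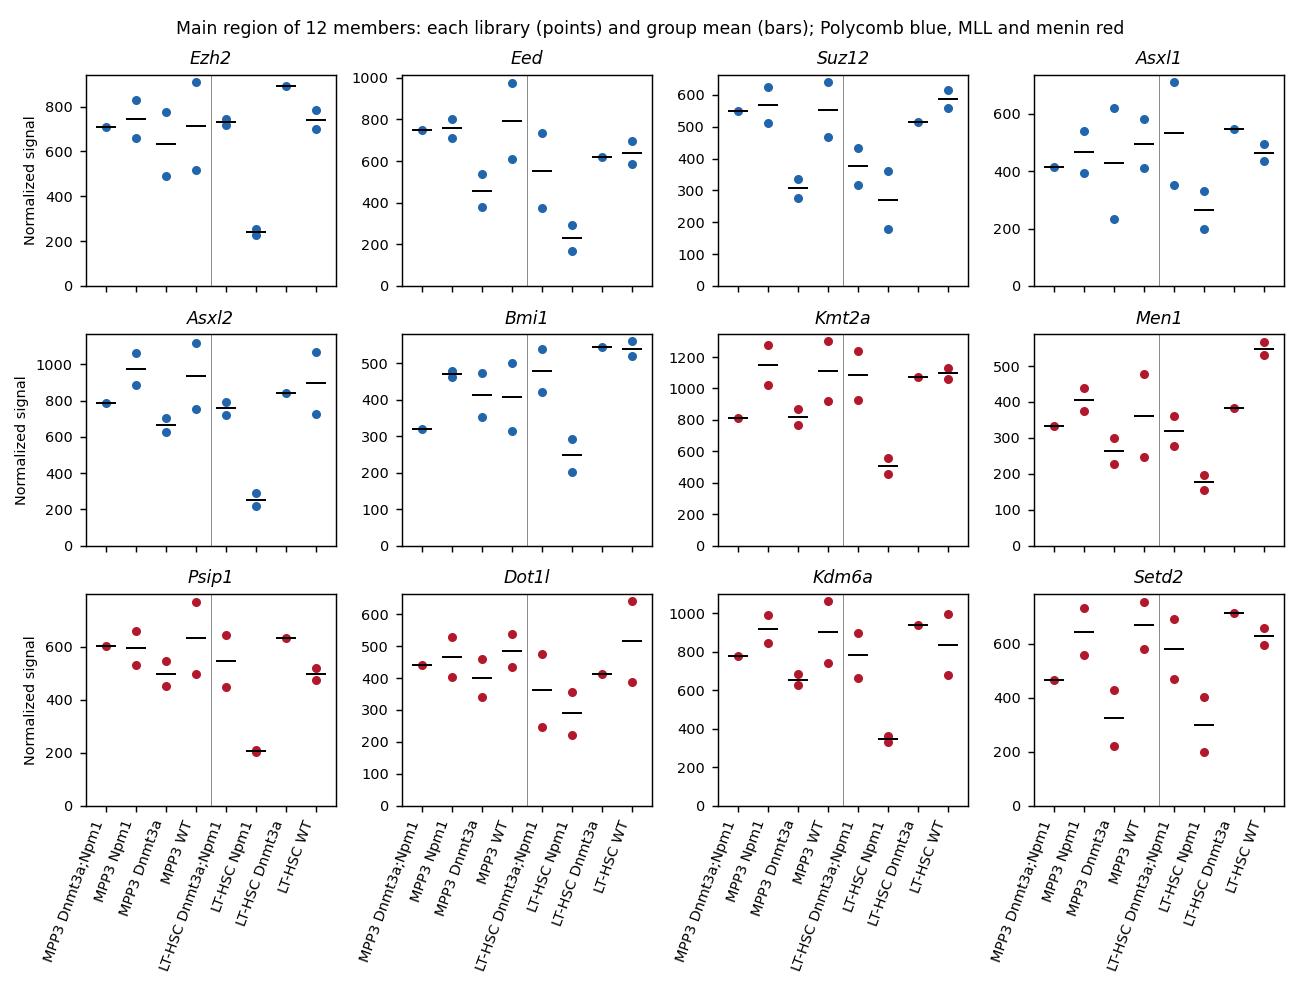
Normalized signal (vertical, from 0) at the main region of the 12 members always described, 1 point per library and a bar at the group mean, for the 8 groups (horizontal; MPP3 left and LT-HSC right of the grey line). In LT-HSC the Npm1 points lie below the WT points in each panel, most clearly for Asxl2, Ezh2, Psip1 and Kdm6a; this is the order under TMM over all tested regions.

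Across all main regions both Npm1 LT-HSC libraries lay below both WT LT-HSC libraries at 41 of 44 genes, 23 of 24 Polycomb and 18 of 20 MLL, against 59.4% of all tested gene-start regions and 84.7% of those with a mean of at least 300. At 25 of the 44 they lay below all 12 other libraries, against 27.7% of gene-start regions and 48.3% of those with a mean of at least 300. A ratio within a library does not depend on the scale factor, so each main region was divided by that library's median over gene starts with a mean of at least 300. On this scale 10 of 44 had both Npm1 libraries below both WT LT-HSC libraries, against 15.6% of gene-start regions and 27.9% of those with a mean of at least 300. Both lay above at 6 of 44, against 38.7% of gene-start regions and 19.8% of those with that mean. At 4 of the 44, Asxl2, Ezh2, Rnf2 and Psip1, both lay below all 12 others, against 4.14% of gene-start regions and 8.04% of those with a mean of at least 300. The Asxl2 ratio was 1.01 and 1.05 in Npm1 LT-HSC and 2.121 and 1.69 in WT LT-HSC, and between 1.60 and 2.04 in the other 10 libraries. The Ezh2 ratio was 0.90 and 1.09 in Npm1 LT-HSC against 1.56 and 1.63 in WT LT-HSC. The 6 that were above were Phc1 and Phc2 of PRC1, and Ash2l, Kdm1a, Kmt2b and Kmt2d of the MLL group.

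Some marker sums differed beside this comparison, while those of lymphoid and of niche genes overlapped between Npm1 and WT LT-HSC. Stem cell marker regions (all 10 genes measured) summed to 9678 to 11207 in Npm1 LT-HSC and 12391 to 13234 in WT LT-HSC, and myeloid marker regions (all 10 genes measured) to 6403 to 7086 in Npm1 and 4873 to 5816 in WT. Regions of 6 of 6 erythroid and megakaryocyte genes summed to 3816 to 4429 in Npm1 and 6150 to 6646 in WT, those of 4 of 6 lymphoid genes (none for Cd3e and Il7r) to 3200 to 3777 and 2907 to 3968, those of 2 of 4 mast cell, basophil and eosinophil genes (none for Cpa3 and Mcpt8) to 472 to 531 and 233 to 403, and those of 4 of 5 niche genes (none for Lepr) to 3320 to 3924 and 1623 to 3547. These sums use signal scaled by TMM over all tested regions, as in the fit, and were not repeated under the other scalings. The part of these cells in the falls above was not tested. With the library's share of signal in tested regions as a covariate, 0 of all 59189 regions were called, and so no member region. At an unadjusted p under 0.05 (limma) 19 member regions passed, against 69 without the covariate. The Npm1 LT-HSC libraries had the lowest shares (29.4% and 25.5%), so this fit cannot tell genotype and share apart. In sorted but bulk samples, fewer cells with an open site and less opening in each cell cannot be told apart. The calls also rest on single libraries. Leaving out WT LT-HSC replicate A, or Npm1 LT-HSC replicate B, removed every member call. Without WT LT-HSC replicate B the calls left went both ways, and without an MPP3 Npm1 library fewer were left. Over all tested regions the calls became fewer in each of these fits as well. Without WT LT-HSC replicate A, and likewise without its replicate B, most of the calls left over all regions were higher. Start medians at Polycomb and MLL genes were -0.86 and -0.67 without WT LT-HSC replicate A, and -1.0 and -1.15 without its replicate B. They were -1.06 and -1.22 without Npm1 LT-HSC replicate A, and -0.87 and -0.66 without its replicate B.

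Other genes of the same pathways were counted from further lists, which were also chosen with earlier results of these data known. Of 96 regions at 22 further Polycomb genes, 4 were called in Npm1 against WT LT-HSC, all lower, with a start median of -0.57. Of 147 regions at 30 further MLL, menin and DOT1L genes, 15 were called, 12 lower and 3 higher, with a start median of -1.01. Both sit beside the 5.91% of all tested regions given above.

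The double mutant was compared with the Npm1 single mutant in LT-HSC. Here 7 of 237 member regions were called, 5 Polycomb and 2 MLL, against 1.7% of all tested regions, and all 7 were higher in Dnmt3a;Npm1, against 1.5% of all regions. At an unadjusted p under 0.05 (limma) 58 passed, against 19.2% of all. At member starts 3 of 40 were called, against 5.12% of all gene starts and 9.99% of those with a mean of at least 300. The start median was 0.95 at Polycomb and 0.84 at MLL genes, against 0.58 for all gene starts. Most member starts had a mean of at least 300 and most gene starts did not, so these medians compare unlike levels. With TMM over gene-start regions the member medians were 0.08 and -0.03, and with cyclic loess 0.03 and -0.06. Gene-start TMM called 1 member, lower, against 434 of all 59189 regions, 402 of them lower. Cyclic loess called no member, against 1 of all regions. This comparison shares its Npm1 libraries with the one above, and genes called in both are not separate evidence.

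Asxl2 had 792 and 721 in Dnmt3a;Npm1 LT-HSC against 288 and 217 in Npm1 LT-HSC, 1.58 higher on the log2 scale (SE 0.33; limma, adjusted p = 0.0308). Ezh2 had 716 and 746 against 255 and 225, a rise of 1.59 (SE 0.34; limma, adjusted p = 0.0312). In both the groups were far apart. WT LT-HSC had 1068 and 725 for Asxl2 and 783 and 701 for Ezh2. The lone Dnmt3a LT-HSC library had 842 for Asxl2 and 891 for Ezh2. The internal Phf19 region had 542 and 757 against 212 and 180 and rose by 1.70 (SE 0.33; limma, adjusted p = 0.0298), and Rbbp4 had 706 and 899 against 281 and 310 and rose by 1.42 (SE 0.35; limma, adjusted p = 0.0434). At Psip1 the values were 450 and 644 against 212 and 203, a rise of 1.36 (SE 0.34; limma, adjusted p = 0.045). The last 2 calls were the Kmt2b flank at Psenen and U2af1l4, which rose by 1.70 (limma, adjusted p = 0.0341), and a region inside Bcor, a variant PRC1 gene, with 341 and 600 in Dnmt3a;Npm1 against 56.3 and 217 in Npm1 (a rise of 1.98; limma, adjusted p = 0.047). Men1 had 361 and 277 in Dnmt3a;Npm1 against 197 and 156 in Npm1, and was not called (0.83, SE 0.37; limma, adjusted p = 0.215). Downward the smallest p belonged to the Kmt2b flank at Zbtb32, with 19.3 and 9.61 in Dnmt3a;Npm1 against 76.1 and 109 in Npm1, and to regions inside Kmt2d and Mllt1; at -2.42, -1.96 and -1.92 none passed the threshold.

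The calls were few and depended on libraries. Leaving out a single library could remove every member call or add calls in both directions, and the calls over all tested regions changed too. Without Dnmt3a;Npm1 replicate A the start medians were 0.95 at Polycomb and 0.75 at MLL genes, and without its replicate B 0.78 and 0.60. Without Npm1 LT-HSC replicate B they were 0.72 and 0.65. Stem cell marker regions summed to 11228 to 13297 in Dnmt3a;Npm1 LT-HSC against 9678 to 11207 in Npm1 LT-HSC, under TMM over all tested regions. Myeloid sums were 5066 to 5389 against 6403 to 7086, and erythroid and megakaryocyte sums 4565 to 5930 against 3816 to 4429. Niche sums were 2133 to 2557 against 3320 to 3924. Lymphoid sums (2888 to 3304 against 3200 to 3777) and mast cell, basophil and eosinophil sums (408 to 830 against 472 to 531) overlapped. The share of signal in tested regions was 42.2% and 41.1% against 29.4% and 25.5%. The part of the marked cells or of this share in the rise was not tested.

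**Figure D4:**
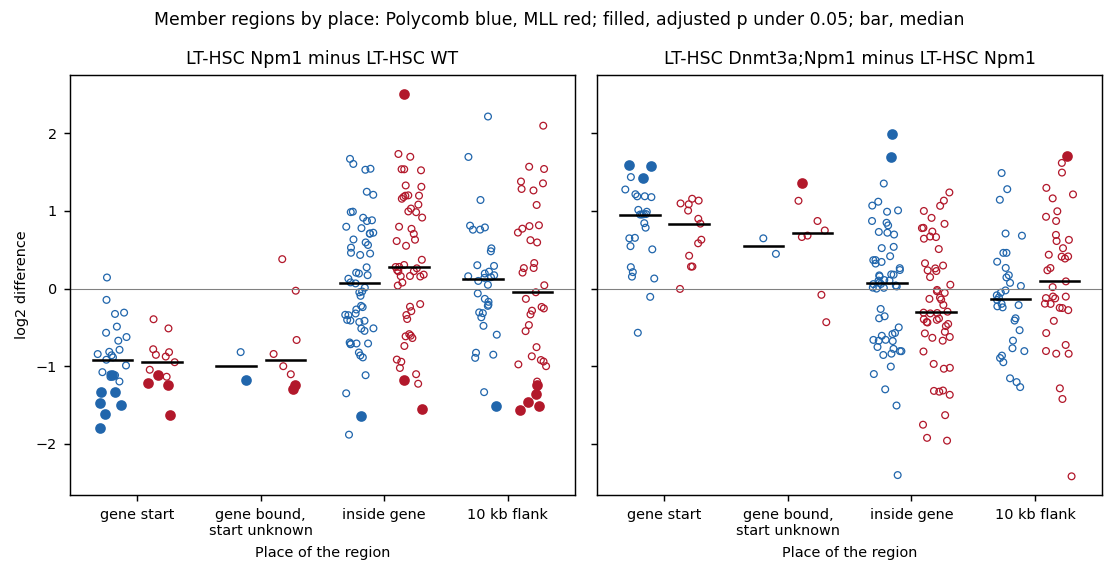
log2 difference of each member region (vertical) by its place (horizontal) for Npm1 minus WT in LT-HSC (left) and Dnmt3a;Npm1 minus Npm1 in LT-HSC (right); Polycomb is blue, MLL red, filled points have an adjusted p under 0.05, and bars are medians. Of 40 start regions, 39 lie below 0 on the left and 37 above 0 on the right, while regions inside genes and in flanks spread on both sides of 0; TMM over gene-start regions brings the start medians to near 0.

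Against WT LT-HSC the other mutants gave no member call. In Dnmt3a;Npm1 against WT LT-HSC 0 of 237 were called, against 0.00338% of all tested regions, and 14 member regions had an unadjusted p under 0.05 (limma), against 7.15% of all. The Kmt2b internal region had the smallest p, with 111 and 69.0 in Dnmt3a;Npm1 LT-HSC against 10.4 and 20.1 in WT LT-HSC (2.30, SE 0.64; limma, adjusted p = 0.52). Next upward were a Setd2 flank region at the start of Nradd (0.95) and a Kmt2c flank region (1.85), and downward a Phc1 flank region (-2.49), an Nsd1 flank region (-1.39) and the Kmt2b flank region at Zbtb32 (-1.70), none past the threshold. Ezh2, at -0.02 (SE 0.34), and Asxl2, at -0.22 (SE 0.33), had small estimates. Start medians were -0.15 at Polycomb and -0.15 at MLL genes, against -0.09 at all gene starts. Without Dnmt3a;Npm1 LT-HSC replicate A the start medians were 0.01 and -0.04, and regions passed in both directions, at members and over the whole table.

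The lone Dnmt3a LT-HSC library gave 0 calls against WT LT-HSC, where 0% of all tested regions were called. Unadjusted p was under 0.05 (limma) for 0 of 122 Polycomb and 6 of 115 MLL regions, against 1.83% of all. The Setd2 flank region at Nradd had 469.9 in Dnmt3a against 227 and 168 in WT LT-HSC (1.25, SE 0.45; limma, adjusted p = 1), and a region inside Aff1 and the Kmt2b internal region came next, at 1.54 and 1.60. The lowest by p were a flank and an internal region of Dot1l (-2.36 and -0.97) and another region inside Kmt2b (-1.60). Suz12 (-0.19, SE 0.45), Bmi1 (0.01, SE 0.43) and Kmt2a (-0.03, SE 0.38) lay near 0, with standard errors that leave changes of either sign unresolved.

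MPP3 showed no call in any mutant. For Npm1 against WT MPP3, 0 of 237 member regions were called, as were 0% of all, and none had an unadjusted p under 0.05 (limma), against 0.115% of all. Asxl2 had 887 and 1062 in Npm1 MPP3 against 755 and 1120 in WT MPP3, and Ezh2 had 661 and 831 against 516 and 909. In both genes the groups overlapped, and so they did at Men1, with 376 and 438 against 246 and 479. Start medians were 0.05 at Polycomb and 0.04 at MLL genes, against 0.00 at all gene starts. The smallest p went upward to 2 regions inside Aff1 (1.17 and 1.07) and 1 inside Phc2 (0.88), and downward to flank regions of Suz12 (-0.93) and Men1 (-0.59) and a region inside Cbx7 (-0.78), none past the threshold.

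The difference between the cell types in the Npm1 effect was tested as an interaction and gave 0 member calls and 0% of all regions. At unadjusted p under 0.05 (limma), 33 of 237 member regions passed, against 11.1% of all, and 16 of 40 member starts did, against 26.6% of all gene starts. Most member starts had a mean of at least 300 and most gene starts did not, so these start shares compare unlike levels. Asxl2 led at 1.88 (SE 0.46; limma, adjusted p = 0.312), then the Kmt2d region at Prkag1 (1.83) and Men1 (1.86). In the other direction the smallest p belonged to regions inside Phc2 (-1.54), Kdm6b (-1.65) and Kmt2b (-1.92). Start medians were 0.97 at Polycomb and 0.93 at MLL genes, and -0.05 and -0.07 with TMM over gene-start regions. A fall at these genes in LT-HSC and none called in MPP3 is therefore not shown to differ between the cell types.

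Dnmt3a against WT MPP3 gave 0 calls, as in 0% of all regions, with 20 of 237 members at an unadjusted p under 0.05 (limma) against 10.1% of all. Upward, regions inside Ring1 (131 and 157 in Dnmt3a MPP3 against 72.6 and 26.0 in WT MPP3) and Kmt2b (145 and 96.9 against 34.6 and 23.9) and a Kmt2c flank region led, at 1.62, 1.90 and 1.97. Downward, the Kmt2b flank at Lin37 (-1.21), a region inside Kdm6b (-0.92) and the Setd2 start (-1.10) led. Setd2 had 220 and 429 in Dnmt3a MPP3 against 581 and 757 in WT MPP3, with groups that did not overlap (SE 0.39; limma, adjusted p = 0.39). Start medians were -0.26 at Polycomb and -0.41 at MLL genes, against -0.32 at all gene starts; with TMM over gene-start regions they were 0.14 and 0.00. The share of signal in tested regions was 31.8% and 37.1% in Dnmt3a MPP3 and 40.6% and 63.1% in WT MPP3, and its part was not tested.

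The lone Dnmt3a;Npm1 MPP3 library gave 0 calls against WT MPP3, as in 0% of all regions, and 2 of 237 members had an unadjusted p under 0.05 (limma), against 0.478% of all. These were a flank region of Setd2, with 7.41 in Dnmt3a;Npm1 MPP3 against 94.5 and 30.2 in WT MPP3 (-2.35, SE 0.85; limma, adjusted p = 1), and the narrow region inside Jarid2, with 297 against 662 and 596 (-1.07). Another Setd2 flank region stood at -1.74. The smallest p upward went to regions inside Dot1l (2.13), Bcor (0.81) and Phc2 (0.82). Kmt2a had 812 in Dnmt3a;Npm1 MPP3 against 920 and 1302 in WT MPP3, and Psip1 had 603 against 496 and 771.

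Between the cell types, WT MPP3 against WT LT-HSC gave 0 member calls and 0% of all regions, with 6 of 237 members at an unadjusted p under 0.05 (limma) against 5.33% of all. The smallest p of the members was a region inside Aff1 (chromosome 5, 103746431 to 103747792), a gene of the elongation machinery and the commonest MLL fusion partner in infant leukaemia. It had 232 and 185 in WT MPP3 against 22.0 and 50.1 in WT LT-HSC, a difference of 2.49 (SE 0.57; limma, adjusted p = 0.252). In the other genotypes it had 98.2 in Dnmt3a;Npm1, 217 and 216 in Npm1 and 59.6 and 206 in Dnmt3a MPP3, against 47.7 and 105, 72.8 and 109, and 105 in the LT-HSC of the same genotypes, so the cell types overlap in range. Regions inside Aff1 came next upward (0.96 and 1.27), and regions inside Ring1 (-1.56) and Bcor (-1.20) and a Jarid2 flank region (-1.70) downward. Fitted on the WT libraries alone, 1 member region was called, higher in MPP3, against 55 of all tested regions, 45 of them higher.

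Averaged over the 4 genotypes, MPP3 against LT-HSC gave 0 member calls, against 0.139% of all tested regions, and 17 of 237 members had an unadjusted p under 0.05 (limma), against 12.5% of all. A Setd2 flank region had the smallest p (-1.34, SE 0.39; limma, adjusted p = 0.154), followed by the Aff1 region above (1.07, SE 0.32; limma, adjusted p = 0.17). Regions inside Ring1 (-0.91) and Phc2 (-0.74), a second region inside Aff1 (0.60) and the Eed start (0.52) came after them. Start medians were 0.15 at Polycomb and 0.24 at MLL genes, against 0.11 at all gene starts. Without MPP3 Dnmt3a replicate A the start medians were 0.21 and 0.27, and more regions passed, at members and over the whole table.

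**Figure D5:**
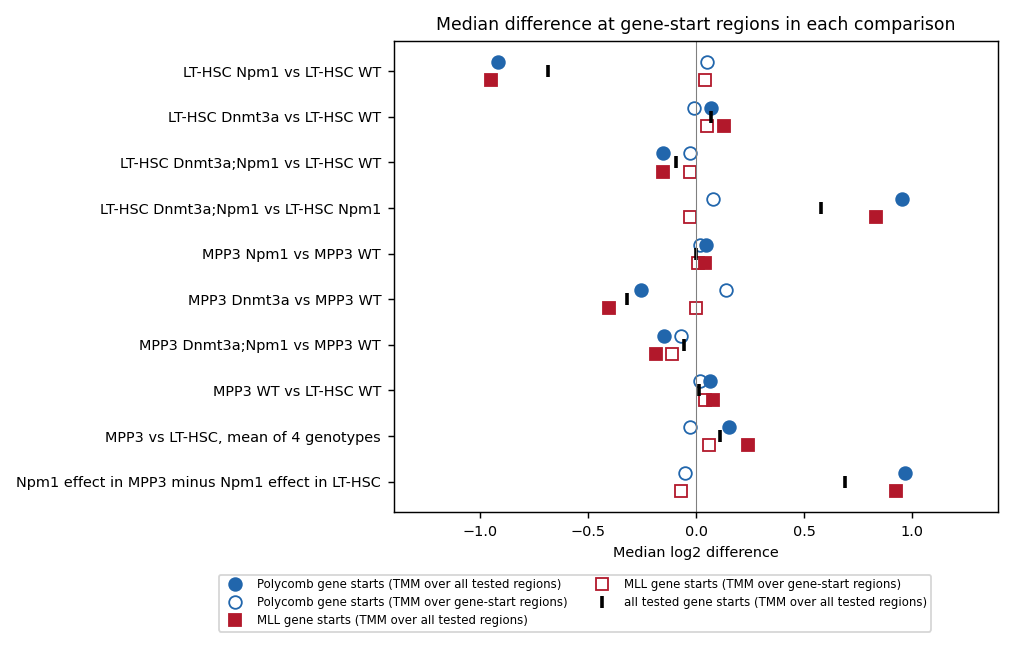
Median log2 difference (horizontal) of Polycomb and MLL start regions and of all tested gene starts in each of the 10 comparisons (vertical). Filled symbols use TMM over all tested regions and open ones TMM over gene-start regions; the medians of -0.92 and -0.95 for Npm1 against WT LT-HSC become 0.05 and 0.04 in the open symbols.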

How the data were processed

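ATAC-seq signal of 14 libraries was taken from the deposited table of 1 shared set of mm10 regions. Its values are whole-number signal that the authors scaled by 1 unstated factor per library, as the steps between low values show, so they are not counts and the depth is unknown. Per the submitters' processing notes, R 3.6.0, DiffBind 2.12.0, edgeR 3.26.4 and HOMER 4.10 were used; the aligner, the peak caller and any shift of read ends are not given in the sources used here. From these values, TMM factors were written out in R 4.3.3 and limma 3.58.1 was fitted to log2(value/factor + 4) of the 59189 regions with a mean of at least 50, with 8 group means and a robust trended prior, and checked on simulated data. A difference on this scale understates changes of low regions. Errors are limma's moderated standard errors, and normalized signal is value/factor. Genes and start sites came from RefSeq tables (GRCm38.p6). Named regions were the called ones, up to 12 in each direction by smallest p, plus the 3 of smallest p in each direction where under 4 were called, the main region of each gene, and 12 genes always. Other called regions are named after their values were seen, as are the ratios to gene starts, the counts of library order and the bins by mean. Members and lists were chosen with earlier results of these data known. Replicate letters were not used to pair libraries, as the labels do not say that they do. Deviations of same-letter libraries correlated at -0.295 to 0.431 over 15 pairs of groups, 1 of them above 0.1, which does not settle pairing. Alternatives tried were other scalings, pseudocounts of 1 and 16, floors of 100 and none, a replicate block, an enrichment covariate, other priors, fewer libraries and other windows.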

Additional observations from a re-analysis of the deposited data

How the results depend on the processing

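The deposited scale factors and the depth are unknown, each group has at most 2 libraries, and no interaction or cell type call was made, so absence of a call does not show equality. For Npm1 against WT LT-HSC the 24 member calls became 53 with the library total, 1 with cyclic loess, 7 with a floor of 100, 1 with no filter, 0 with the enrichment covariate, 0 with no trend or robust prior, 13 with the 7 LT-HSC libraries alone and 14 of 44 when only main regions counted, and leaving out 1 library gave 0 to 30. With the replicate block 17 members were called, against 2840 of all 59189 regions. Kmt2a, Kmt2e and the Pcgf5 start reversed with cyclic loess, at 0.14, 0.09 and 0.05. For Dnmt3a;Npm1 against Npm1 LT-HSC the 7 calls became 0 with loess, with no filter, with the covariate and with the other prior, 1 with TMM over gene-start regions, 3 with a floor of 100, 3 with the 7 LT-HSC libraries alone, 4 with the replicate block and 4 on main regions, and leaving out 1 library gave 0 to 16. In the other 8 comparisons the count of 0 became 1 for WT MPP3 against WT LT-HSC with their libraries alone. It also rose on leaving out some libraries for Dnmt3a;Npm1 against WT LT-HSC and for MPP3 against LT-HSC over 4 genotypes. The cause was not tested. TMM over gene-start regions and the crossed replicate block, which called no member for WT MPP3 against WT LT-HSC, were added after the data were seen. The replicate letters pair no animals in the labels.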
